A study of Mus musculus with 25 samples.

Results

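The proteasome genes described here were all genes whose symbol is Psma, Psmb, Psmc or Psmd followed by a number, apart from the interferon-inducible subunits Psmb8, Psmb9 and Psmb10. There were 36 such genes among the 18440 genes listed in all 5 deposited expression tables of mouse retina, 16 of the core particle (Psma, Psmb) and 20 of the regulatory particle (Psmc, Psmd). Wild-type C57BL/6J mice had been injected into the vitreous of both eyes at postnatal day 30 with 1 µL of AA147, Ceapin-A7 or tunicamycin, each at 10 µM, or with vehicle, and retina was sequenced in bulk. The series describes Ceapin-A7 as an inhibitor and AA147 as an activator of ATF6, an ER stress sensor, and tunicamycin as the positive control. Each compound and each of 2 vehicle sets had 5 libraries. The treatment label of the vehicle libraries reads PBS, while the protocol names saline with 0.05 to 0.1% DMSO, which the compounds were also dissolved in. Compound columns carry a collection time of 24 h and vehicle columns carry none, so time and compound cannot be told apart. Whether the libraries of 1 group are from different animals is not given in the sources used here, and the p-values cover the spread among these libraries only, part of which may be technical. AA147 was compared with vehicle set 1, whose table lists the same 18676 genes, and tunicamycin and Ceapin-A7 with vehicle set 2, whose table lists the same 19102 genes.

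The proteasome is the protease of cytosol and nucleus that degrades ubiquitin-tagged proteins, including misfolded proteins drawn back out of the ER. Its barrel-shaped core stacks rings of alpha subunits (Psma), which gate the entry, on rings of beta subunits (Psmb), of which Psmb5, Psmb6 and Psmb7 carry the peptidase sites. The regulatory particle caps the barrel: a ring of Psmc ATPases unfolds the substrate, and Psmd subunits receive, deubiquitinate and position it. When proteasome activity falls, NRF1, an ER-anchored transcription factor encoded by Nfe2l1, is known to raise the subunit genes together through antioxidant response elements. In photoreceptors, which renew their light-sensing discs daily, the proteasome is one of the routes that clear misfolded proteins.

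The sequence that NRF1 recognises bears on whether subunits could move together, so the promoters were searched for it. RefSeq promoter windows (build GRCm38.p6, whereas the authors' notes name GRCm39) were found for 29 of the 36 genes, 28 of them among the genes tested, and not for Psma8, Psmb1, Psmb2, Psmb7, Psmc3, Psmd3 and Psmd7. For 24 of the 29 genes, the bases just after the listed start occur in a GENCODE transcript of the gene, at any position. The element core TGANNNNGC, on either strand of the 250 bases before the start, was present in 11 of 28 tested members, or 39.3%, and in 38.7% of all 27025 genes with a window. Its narrower form TGACNNNGC, which is contained in the first, was present in 5 of 28, or 17.9%, against 11.5% of all genes. The CCAAT box was present in 11 of 28, again 39.3%, against 37.5% of all genes. The 5 promoters with the narrower form are shown because this letter pattern is the usual form of the element, with 60 bases each on the strand of the gene and the match in capitals. They belong to the peptidase subunits Psmb5 (chr14:54618003-54618062, minus strand) and Psmb6 (chr11:70525297-70525356, plus strand), the ATPase Psmc6 (chr14:45329577-45329636, plus strand), the lid subunit Psmd12 (chr11:107479278-107479337, plus strand) and the base assembly chaperone Psmd9 (chr5:123228130-123228189, plus strand). In Psmc6 and Psmd12 the match reads on the opposite strand.
Psmb5: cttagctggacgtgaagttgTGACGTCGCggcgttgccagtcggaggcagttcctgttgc
Psmb6: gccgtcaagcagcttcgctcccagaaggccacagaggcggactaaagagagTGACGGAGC
Psmc6: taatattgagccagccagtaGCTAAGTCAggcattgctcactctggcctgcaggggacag
Psmd12: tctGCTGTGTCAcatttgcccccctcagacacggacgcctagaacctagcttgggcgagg
Psmd9: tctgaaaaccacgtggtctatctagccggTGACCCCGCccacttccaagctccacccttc
These matches describe the letters in the windows and are not known binding sites in this tissue.

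Expression values were FPKM, fragment counts scaled by transcript length and library size, and so could be compared between genes per unit of length. Depth, as estimated from low values, ranged from 15.3 to 25.4 M fragments, and 12582 to 12870 genes reached 1 FPKM. Markers of rods, Muller glia, bipolar and amacrine cells and ganglion cells were all detected, as were all 13 lens markers, whose summed share of FPKM ran from 0.00147% to 3.84% of a library although the protocol removes the lens. Rod markers summed to 15960 and 15170 FPKM in vehicle set 2 libraries 4 and 5, against 20350 to 22770 in libraries 1 to 3. The Y-linked gene Ddx3y was at 0 in vehicle set 2 libraries 1 to 4 and in libraries 4 and 5 of both AA147 and Ceapin-A7, and above 0 in all other libraries. In bulk tissue, fewer cells of a type and less RNA per cell cannot be told apart.

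All constitutive subunits were transcribed at substantial levels, and the core particle at higher levels per length than the regulatory particle. Of the 36 genes, 34 reached at least 1 FPKM in at least 5 libraries and were tested: 14 core and all 20 regulatory. The exceptions were Psma8, the testis-specific alpha subunit, at 0 to 0.31 FPKM, and Psmb11, the thymus-specific beta subunit, at 0 to 0.03 FPKM. The mean over all 25 libraries was highest for the trypsin-like peptidase subunit Psmb7, at 157 FPKM, and lowest for Psmd10, at 12.02 FPKM, a 13.1-fold range. Core genes spanned a 2.80-fold range down to Psma1 at 56.2 FPKM, with a median of 88.3 FPKM. Regulatory genes had a median of 52.8 FPKM and spanned 7.82-fold, from the ATPase Psmc5 at 94.0 FPKM to Psmd10.

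Within the core, the alpha ring ran from Psma3 at 94.9 FPKM to Psma1 at 56.2 FPKM, and the beta ring from Psmb7 at 157 FPKM to Psmb1 at 69.9 FPKM. The other peptidase subunits stood among the highest members, Psmb5 (chymotrypsin-like) at 119 FPKM and Psmb6 (caspase-like) at 99.4 FPKM, and only the structural beta subunit Psmb4, at 145 FPKM, lay between Psmb7 and Psmb5. Within the regulatory particle the 6 ATPases were the most even subgroup, from Psmc5 at 94.0 to Psmc2 at 59.8 FPKM, a 1.57-fold range. The ubiquitin receptors Psmd4 and Psmd2 averaged 90.9 and 76.5 FPKM, and the deubiquitinase Psmd14 averaged 42.9 FPKM. The lid ran from Psmd8 at 86.5 to Psmd13 at 32.5 FPKM. The chaperones that assemble the base and leave the finished particle, Psmd5, Psmd9 and Psmd10, had the lowest levels of the regulatory genes, at 26.2, 12.3 and 12.02 FPKM.

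**Figure D1:**
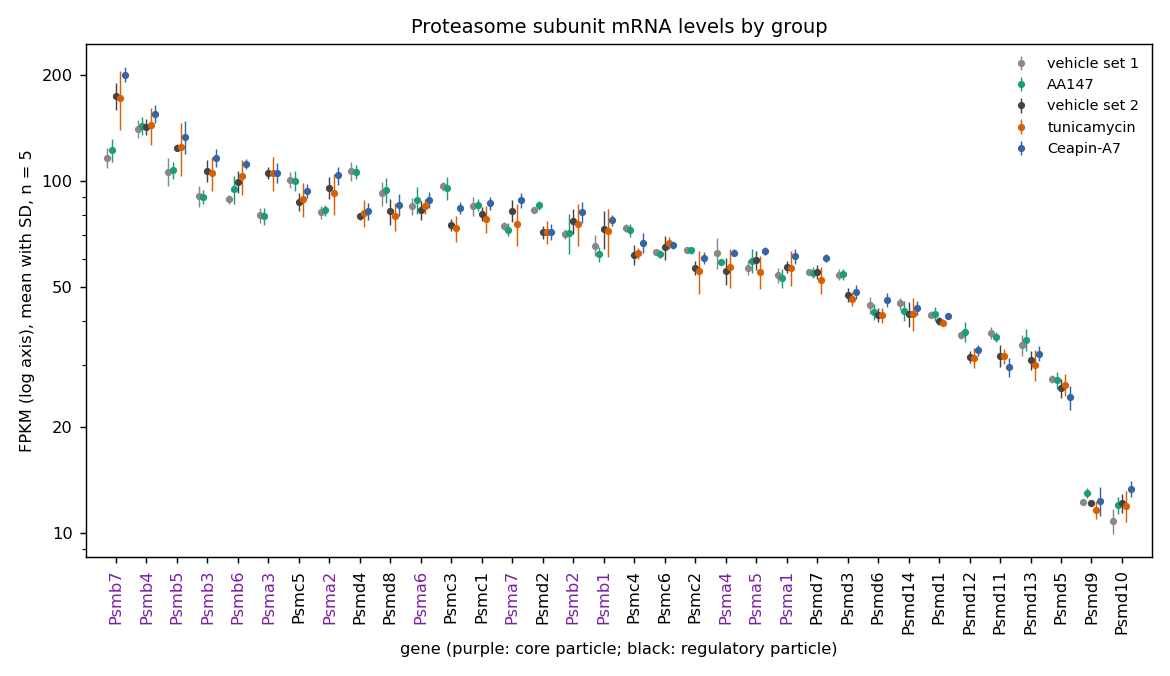
Level of each of the 34 tested proteasome genes in each of the 5 groups, ordered by the mean over all libraries. The vertical axis is FPKM on a log scale, points are means of 5 libraries and bars are SD. Psmb7 lies highest, Psmd9 and Psmd10 lowest, and several core genes (purple names) lie higher in vehicle set 2, tunicamycin and Ceapin-A7 than in vehicle set 1 and AA147.

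Libraries of a group differed little in most of these genes, with tunicamycin as the exception. The median coefficient of variation of the 34 genes was 4.64% in vehicle set 1, 5.39% with AA147, 6.04% in vehicle set 2 and 4.86% with Ceapin-A7, and 10.2% with tunicamycin. With tunicamycin it was highest for Psmb7, at 19.1%, and lowest for Psmd1, the large scaffold of the base, at 2.27%.

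Tunicamycin blocks N-glycosylation, so proteins misfold in the ER, and it was compared with vehicle set 2 to see whether the subunits of the protease that disposes of them moved. None of the 34 proteasome genes did so past the test, while 8.70% of all 13117 genes tested were called, 5.89% higher and 2.81% lower (limma, Benjamini-Hochberg adjusted p under 0.05). At an unadjusted p under 0.05 the count was also 0 of 34, against 24.6% of all genes, 15.0% higher and 9.64% lower. The libraries of the groups overlapped for all 34, while 2.81% of all genes were non-overlapping and higher and 1.24% non-overlapping and lower. The median log2 difference was -0.02 over the 14 core genes and -0.01 over the 20 regulatory genes, against 0.01 over all genes, with 9 members above 0 and 25 below. Single differences ran from -0.13 (Psma7) to 0.05 (Psmb6). Their 95% intervals reached at the widest from -0.26 (Psma7) to 0.18 (Psmb6). These intervals use a spread pooled over all 5 groups, which is too small for the more variable tunicamycin libraries. The share of all genes called rests on the same pooled spread. With only the groups compared in the model, 0 of 34 members were called, against 0.656% of all genes (limma). Ddx3y was above 0 in all 5 tunicamycin libraries but only in library 5 of vehicle set 2. With Ddx3y as a covariate, 0 of 34 members were called, against 3.28% of all genes. Without tunicamycin library 3, Psma7 and Psmd7 were called lower, 2 of 34, where 6.08% of all genes were called lower and 15.1% in all. The core median was 0.05 without tunicamycin library 1, 0.01 without library 2 and -0.07 without library 3.

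Among the peptidase subunits, Psmb7 stood at 129.95, 149.85, 211, 196 and 175 FPKM in tunicamycin libraries 1 to 5. In vehicle set 2 it stood at 158, 197, 173, 165 and 179 FPKM. Libraries 1 and 2 with tunicamycin lay below all vehicle libraries and library 3 above them, and the groups overlapped. The log2 difference was -0.03 ± 0.09 (SE), with an adjusted p of 0.859.

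Psmb5, the site blocked by most proteasome inhibitors in clinical use, had the same form. It stood at 102, 105, 154, 127 and 134 FPKM with tunicamycin and at 121, 126, 124, 123 and 127 FPKM in vehicle set 2. Again libraries 1 and 2 were lowest and library 3 highest, and the group means were equal within 1 FPKM, at 124 ± 21.5 and 124 ± 2.62 FPKM (SD, n = 5). Psmb6 stood at 91.2, 95.9, 122, 100.4 and 106 FPKM with tunicamycin and at 99.5, 109.8, 102, 93.3 and 91.8 FPKM in vehicle set 2. Tunicamycin library 3 lay above all vehicle libraries, and the groups overlapped. The log2 differences of Psmb5 and Psmb6 were -0.02 (95% interval -0.20 to 0.17) and 0.05 (-0.09 to 0.18).

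The gateway subunits of the regulatory particle varied less. Psmd4, the receptor with ubiquitin-interacting motifs, stood at 87.6, 72.3, 89.5, 78.5 and 78.0 FPKM with tunicamycin and at 78.5, 76.8, 81.5, 78.7 and 80.7 FPKM in vehicle set 2. Psmd2, the large scaffold and receptor subunit, stood at 69.9, 63.1, 76.5, 74.8 and 72.9 FPKM with tunicamycin and at 70.0, 68.5, 70.8, 76.5 and 71.0 FPKM in vehicle set 2. Both overlapped between the groups, and their log2 differences were 0.03 (-0.08 to 0.14) and 0.00 (-0.09 to 0.09). The deubiquitinase Psmd14 averaged 41.8 FPKM in both groups, with an interval from -0.13 to 0.13. By subgroup, the medians were -0.01 for both the alpha ring and the ATPase ring, -0.03 for the beta ring (7 genes), -0.02 for the 8 lid genes and -0.02 for the 3 assembly chaperones. The 5 genes whose promoter letters are shown above, Psmb5, Psmb6, Psmc6, Psmd12 and Psmd9, differed by -0.02, 0.05, 0.04, -0.01 and -0.06.

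**Figure D2:**
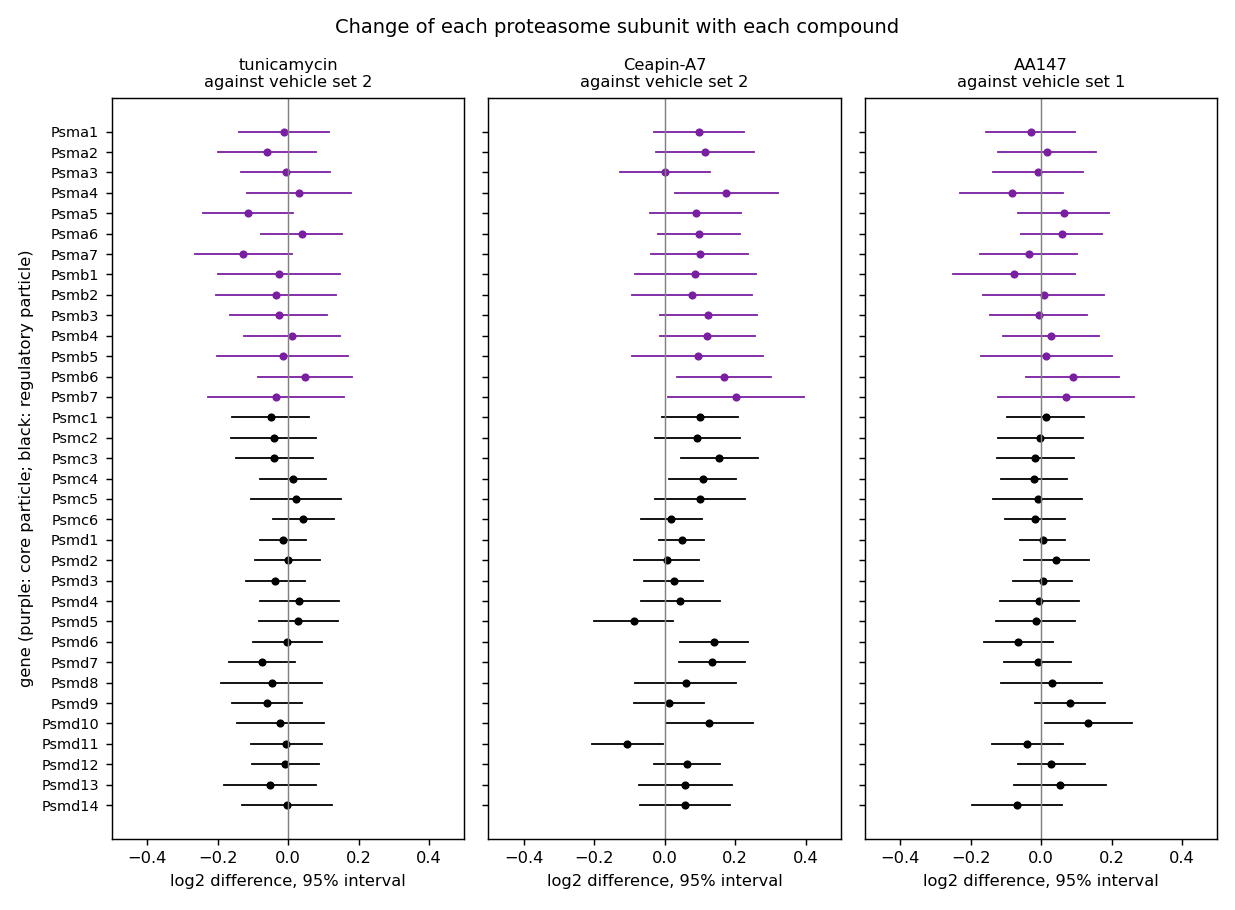
Log2 difference of each of the 34 proteasome genes for each compound against the vehicle set of the same gene list, with 95% intervals from limma (purple core, black regulatory). With tunicamycin and AA147 the points scatter on both sides of 0, and with Ceapin-A7 32 of 34 lie above 0, none of them called.

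The same tunicamycin libraries had higher levels of ER chaperone mRNAs and of some mRNAs for ER-associated degradation. All 17 of 17 ATF6 targets and ER chaperones were called higher, with a median log2 difference of 1.33, and Hspa5, the main ER Hsp70, averaged 649 FPKM against 125 FPKM (log2 difference 2.10 ± 0.28). Of 18 genes of ER-associated degradation, which carries misfolded proteins out to the proteasome, 8 were called higher and 0 lower, with a median of 0.20. The other 10 were not called. Over all genes 5.89% were called higher and 2.81% lower. Derl3, a channel component, differed by 3.59 ± 0.35, the ubiquitin-like scaffold Herpud1 by 1.55 ± 0.28, Selenos, which recruits the extraction ATPase, by 0.85 ± 0.14, and Edem1, which selects glycoproteins for disposal, by 0.71 ± 0.11. Derl3, Herpud1 and Sel1l are in both lists. These lists were chosen with earlier results of these data known, and their counts describe what happened around the proteasome genes.

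Nfe2l1, which encodes NRF1, was called higher with tunicamycin. It stood at 136, 87.5, 68.2, 93.8 and 84.1 FPKM with tunicamycin and at 67.1, 62.8, 68.3, 74.0 and 81.2 FPKM in vehicle set 2. Library 1 was far above the rest, and library 3 lay within the vehicle range. The log2 difference was 0.37 ± 0.11, with an adjusted p of 0.0313. The call was lost without tunicamycin library 1 (0.23, adjusted p = 0.0772) and in 9 of the other 21 alternatives, among them leaving out tunicamycin library 4 or vehicle set 2 library 1, 2 or 3 (adjusted p from 0.00172 to 0.0772 over single libraries left out). Of the 8 genes for NRF1 and its processing, this was the gene called, and the other 7, among them the protease Ddi2 that cleaves NRF1 and the deglycosylase Ngly1, did not pass, at 0.05 and 0.14.

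The other parts of the system gave 2 further calls. Of 5 genes for core assembly chaperones, Psmg3 was called higher, from 18.7 to 22.1 FPKM (0.23 ± 0.07, adjusted p = 0.0364). Pomp, which matures the beta subunits, differed by -0.01. Of 9 factors that bind the assembled proteasome, the thioredoxin-like Txnl1 was called higher, from 28.7 to 32.6 FPKM (0.17 ± 0.05, adjusted p = 0.0465). Both calls depended on the settings: Psmg3 lost its call in 12 and Txnl1 in 16 of 22 alternatives, with adjusted p up to 0.112 and 0.156 when single libraries were left out. For Psmg3 those libraries were tunicamycin 1, 3 and 4 and vehicle set 2 libraries 1, 3 and 4, and for Txnl1 tunicamycin 1 and 2 and vehicle set 2 libraries 1, 3, 4 and 5. None of 5 activators and inhibitor, 5 ubiquitin and ubiquitin-activating genes or 10 shuttle and extraction factors passed, and none of the 3 immunoproteasome subunits, at -0.15 (Psmb8), -0.16 (Psmb9) and 0.07 (Psmb10).

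The tunicamycin libraries differed among themselves in both ER stress genes and proteasome genes. Hspa5 stood at 1513, 495, 229, 581 and 427 FPKM in libraries 1 to 5. The mean log2 level of the 14 core genes in the same libraries was 6.26, 6.36, 6.71, 6.52 and 6.58, and that of the 20 regulatory genes was 5.46, 5.44, 5.64, 5.49 and 5.53. Library 1, with the most Hspa5 and Nfe2l1 mRNA, had the lowest core mean of the 5, and library 3, with the least of both, had the highest core and regulatory means. The order did not hold for the others: library 4 had more Hspa5 than library 2 and a higher core mean, and the lowest regulatory mean was in library 2.

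In summed FPKM the core genes ran from 1118 in library 1 to 1542 in library 3. The vehicle set 2 libraries spanned 6.45 to 6.61 in the core mean and 5.48 to 5.57 in the regulatory mean, so tunicamycin libraries 1 and 2 lay below that range in both and library 3 above it in both. With 5 libraries no correlation was computed. Marker lists differed in the same libraries. Lens markers took 3.84% of FPKM in library 1, 1.91% in library 2, 0.00147% in library 3, 0.0601% in library 4 and 1.43% in library 5, against 0.00265% to 1.29% in vehicle set 2. Markers of endothelium and pericytes summed to 52.4 to 80.3 FPKM with tunicamycin and 96.4 to 113 FPKM in vehicle set 2, with 6 of 10 called lower and 1 higher. Pigment epithelium markers summed to 26.2 to 70.9 FPKM against 110.4 to 234 FPKM, with 4 of 8 called lower, and no marker was at 0 in all libraries. Retinal markers differed too: library 1 was lowest of the 5 in rods (15500 FPKM summed, others 18240 to 19630), Muller glia (1350, others 1936 to 2396), bipolar and amacrine cells (773, others 945 to 1068) and ganglion cells (399, others 473 to 571), and library 3 was highest in the last pair of lists. In vehicle set 2 the last 3 lists summed to 1774 to 2658, 986 to 1150.0 and 477 to 649 FPKM, and none of the genes of the 4 retinal lists was called. The part of any of these cells in the particle means was not tested.

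**Figure D3:**
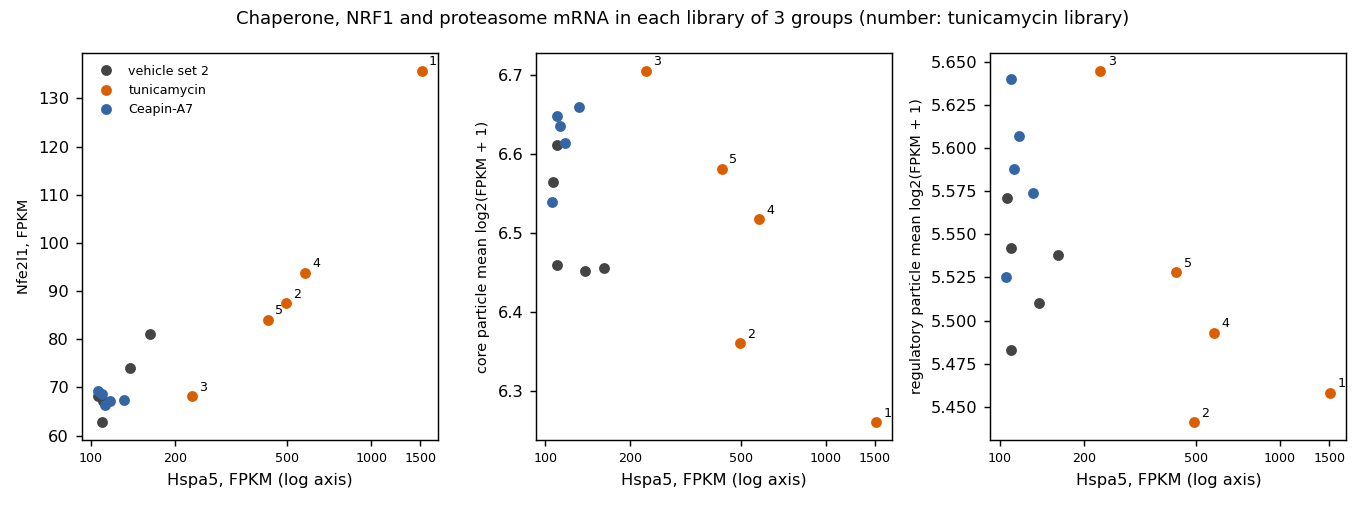
Nfe2l1 in FPKM (left), the core mean (middle) and the regulatory mean (right), both as mean log2(FPKM + 1), against Hspa5 in FPKM on a log axis, in each library of vehicle set 2, tunicamycin and Ceapin-A7. Tunicamycin library 1 has the highest Hspa5 and Nfe2l1 and the lowest core mean, and tunicamycin library 3 has the highest core and regulatory means of these 3 groups.

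Ceapin-A7 holds ATF6 away from its activation in the Golgi and was compared with the same vehicle set 2 libraries as tunicamycin, so their differences share control libraries. No member was called, and neither was any other gene (0%, limma). The members nevertheless sat mostly above 0: 32 of 34, with a core median of 0.10 and a regulatory median of 0.06, against a median of 0 over all genes. That count was 31, 30 and 27 of 34 with median-ratio scaling, quantile normalization and FPKM rescaled without lens genes, the last chosen after seeing the data. At an unadjusted p under 0.05 there were 9 members, 8 higher and 1 lower, against 12.3% of all genes, 5.49% higher and 6.82% lower. An alternative added after the data were seen left out vehicle set 2 libraries 4 and 5. In it 3 members had an unadjusted p under 0.05, against 3.36% of all genes, and the medians were 0.07 and 0.05.

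The groups did not overlap for 2 regulatory members, both higher with Ceapin-A7, whereas 0.968% of all genes were non-overlapping in that direction and 0.480% in the other. Psmc3, an ATPase, stood at 79.98, 86.9, 84.6, 86.5 and 80.5 FPKM with Ceapin-A7 and at 71.5, 78.6, 77.5, 72.9 and 75.0 FPKM in vehicle set 2. Psmd7, a lid subunit that pairs with the deubiquitinase Psmd14, stood at 60.02, 59.2, 59.9, 63.0 and 59.7 FPKM with Ceapin-A7 and at 51.3, 56.1, 56.6, 53.4 and 57.3 FPKM in vehicle set 2. All Ceapin-A7 libraries were the higher ones in both genes, by 0.15 ± 0.05 and 0.13 ± 0.05 on the log2 scale, each with an adjusted p of 0.304.

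Among the peptidase subunits, Psmb7 averaged 200.3 ± 9.72 FPKM with Ceapin-A7 and 174 ± 15.0 FPKM in vehicle set 2 (SD, n = 5), a log2 difference of 0.20 (95% interval 0.01 to 0.40) with an adjusted p of 0.391. The ranges overlapped, with 187 to 209 FPKM against 158 to 197 FPKM. Psmb6 differed by 0.17 (0.04 to 0.30) and Psmb5 by 0.09 (-0.09 to 0.28), and neither passed (adjusted p = 0.332 and 0.701). Psmd4, Psmd2 and Psmd14 differed by 0.04, 0.01 and 0.06. The member with a negative difference at an unadjusted p under 0.05 was Psmd11, a lid subunit that joins the lid to the base, at 29.5 against 31.9 FPKM (-0.11, adjusted p = 0.385). Transcript length moved with these values: over all tested genes under 1500 bases the median difference was 0.07, over genes of 1500 to 3000 bases 0.02 and over longer genes -0.02, and core transcripts had a median length of 1162.5 bases. Rod markers had a median difference of 0.17 in the same comparison (10 genes, none called) and summed to 20900 to 22520 FPKM with Ceapin-A7 and 15170 to 22770 FPKM in vehicle set 2, and their part in the result was not tested.

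AA147 is a proteostasis regulator taken to activate ATF6, and it was compared with vehicle set 1. No member was called, as no gene was (0%, limma). The medians were 0.01 for the core and 0.00 for the regulatory genes, against 0.01 for all genes, with 17 members on each side of 0. Differences ran from -0.08 (Psma4, an alpha subunit) to 0.13 (Psmd10), and the widest interval bounds were -0.25 (Psmb1) and 0.26 (Psmb7).

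Psmd10, the assembly chaperone also known as gankyrin, was the single member with an unadjusted p under 0.05 (0.0344, adjusted p = 1), whereas 1.88% of all genes had one, 1.11% higher and 0.770% lower. It stood at 11.95, 13.1, 11.3, 11.7 and 11.8 FPKM with AA147 and at 10.7, 10.2, 10.6, 12.3 and 10.2 FPKM with vehicle. Library 4 of the vehicle lay inside the AA147 range. The groups overlapped for all 34 members, while 0.450% of all genes were non-overlapping and higher and 0.206% non-overlapping and lower. Psmb5, Psmb6 and Psmb7 differed by 0.02, 0.09 and 0.07, with intervals of -0.17 to 0.20, -0.04 to 0.22 and -0.12 to 0.26. The change with tunicamycin minus the change with AA147, each against its own vehicle set, was called for 0 of 34 members, against 1.04% of all genes, 0.640% above 0 and 0.396% below (limma). At an unadjusted p under 0.05 it was Psmd9 alone (-0.14, adjusted p = 0.315), against 15.5% of all genes, 8.81% above 0 and 6.72% below.

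**Figure D4:**
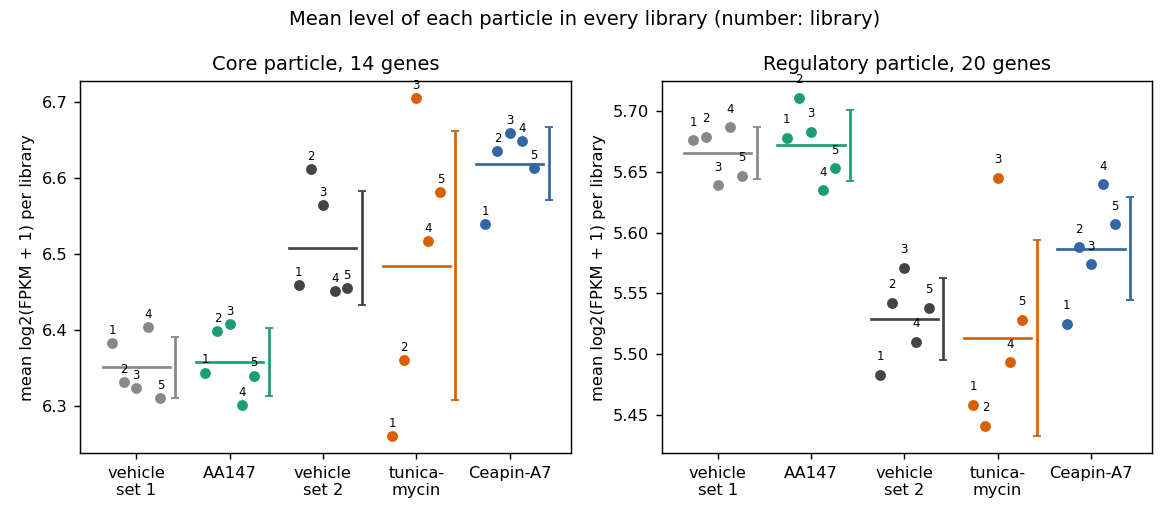
Mean log2(FPKM + 1) over the 14 core genes (left) and the 20 regulatory genes (right) in each library, with the group mean as a line and the SD as a bar (n = 5). Tunicamycin libraries spread from 6.26 to 6.71 in the core and from 5.44 to 5.64 in the regulatory particle, and the means of vehicle set 1 and AA147 are lower in the core and higher in the regulatory particle than those of the other 3 groups.

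Tunicamycin and Ceapin-A7 were also compared directly, at the same dose and labelled time, since 1 raises ATF6 signalling through ER stress and the other blocks it. Here 5 members were called lower with tunicamycin and 0 higher, or 2 of 14 core and 3 of 20 regulatory genes, against 13.3% of all genes called, 4.48% lower and 8.83% higher. The core median was -0.12 and the regulatory median -0.08, against 0.01 over all genes. At an unadjusted p under 0.05 there were 11 members lower and 2 higher (Psmd5 and Psmd11), against 11.9% of all genes lower and 18.1% higher, 30.0% in all. The libraries of the groups overlapped for all 34 members, while 6.73% of all genes were non-overlapping and higher and 2.74% non-overlapping and lower.

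Lower with tunicamycin than with Ceapin-A7 does not mean lower than vehicle, so the difference of each from vehicle set 2, which both share, is given too; none of those differences was called. Psmd7 had the smallest p. It stood at 47.2, 49.5, 59.4, 53.8 and 51.3 FPKM with tunicamycin, against the 59.2 to 63.0 FPKM given above for Ceapin-A7. Tunicamycin library 3 alone reached into the Ceapin-A7 range. The log2 difference between the compounds was -0.21 (95% interval -0.30 to -0.12, adjusted p = 0.00455). Against vehicle set 2 it was -0.08 with tunicamycin and 0.13 with Ceapin-A7, the larger estimate, but neither was called.

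Psma7 and Psma5, alpha ring subunits, were called lower as well. Psma7 stood at 64.1, 68.2, 89.6, 73.2 and 82.6 FPKM with tunicamycin and at 80.7, 89.5, 90.4, 91.6 and 87.6 FPKM with Ceapin-A7 (-0.23, adjusted p = 0.0267). Psma5 stood at 47.3, 50.8, 61.7, 56.4 and 59.4 FPKM with tunicamycin and at 61.9, 61.3, 65.0, 62.9 and 64.8 FPKM with Ceapin-A7 (-0.20, adjusted p = 0.035). In Psma5 library 3 was the one tunicamycin library that overlapped, and in Psma7 libraries 3 and 5 did. Against vehicle set 2, Psma7 differed by -0.13 with tunicamycin and 0.10 with Ceapin-A7, and Psma5 by -0.11 and 0.09.

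The ATPase Psmc3 differed by -0.19 (adjusted p = 0.0178), at 67.1, 67.0, 81.0, 72.8 and 78.0 FPKM with tunicamycin, where again library 3 overlapped the Ceapin-A7 range of 79.98 to 86.9 FPKM. Psmd6, a lid subunit, differed by -0.14 (adjusted p = 0.0479), at 43.0, 40.2, 44.0, 38.9 and 41.7 FPKM against 42.5, 46.7, 47.8, 47.4 and 45.1 FPKM. Its lowest Ceapin-A7 library lay below tunicamycin libraries 1 and 3. Against vehicle set 2, Psmc3 differed by -0.04 with tunicamycin and 0.15 with Ceapin-A7, and Psmd6 by 0.00 and 0.14. By these estimates the Ceapin-A7 difference was the larger in both genes, but none of them was called. The 3 peptidase subunits Psmb5, Psmb6 and Psmb7 differed by -0.11, -0.12 and -0.24 and did not pass (adjusted p = 0.432, 0.203 and 0.0892).

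The number of calls changed with single libraries and with the pooled spread. With the 2 groups alone in the model 0 members were called, against 4.67% of all genes (limma; 7 members at an unadjusted p under 0.05, against 26.4% of all genes), with adjusted p of 0.0591 to 0.127 for the 5. Leaving out 1 library gave 1 call without tunicamycin library 1 or 2 (Psmd7 each time), 2 without Ceapin-A7 library 3 or 4, 3 without tunicamycin library 4 or Ceapin-A7 library 2 or 5, and 13 without tunicamycin library 3. In these fits the share of all genes called lower was 1.88% without tunicamycin library 1, 2.71% without library 2, 3.74% without library 4 and 9.30% without library 3, and 2.73% to 3.05% without Ceapin-A7 library 2, 3, 4 or 5. Without tunicamycin library 5 or Ceapin-A7 library 1, 4 members were called, where 4.99% and 3.39% of all genes were called lower. The count of members was highest and lowest where the share of all genes was, but did not follow it in every fit. Psmd7 was called in 18 of 20 alternatives. Genes under 1500 bases had a median of -0.06 in this comparison and those over 3000 bases of 0.04, and the rod marker list had a median of -0.27 (2 of 10 lower), summing to 15500 to 19630 FPKM with tunicamycin. The part of either in the result was not tested. Nfe2l1 was 0.43 higher with tunicamycin than with Ceapin-A7 (adjusted p = 0.0111). Txnl1 was 0.17 higher (adjusted p = 0.0429). Of the 10 shuttle and extraction factors, Rad23b (0.14) and Ufd1 (0.20) were higher with tunicamycin on the log2 scale.

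The 2 particles differed in opposite directions between the vehicle sets, for which the labels give the same injection. This comparison was added after the data were examined, and it sets levels across tables that list different genes. In vehicle set 2 against vehicle set 1, 6 of 14 core genes were higher and 0 lower, and 1 of 20 regulatory genes was higher and 9 lower. Over all genes 46.8% were called in this comparison, 26.3% higher and 20.5% lower, so the share of members called (16 of 34) was near the background. At an unadjusted p under 0.05 there were 8 members higher and 12 lower, against 52.8% of all genes, 29.6% higher and 23.2% lower. The core median was 0.14, the regulatory median -0.15 and the median over all genes 0.03.

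Psmb7 stood at 123, 111, 115, 125 and 107 FPKM in vehicle set 1 and, as given above, at 158 to 197 FPKM in vehicle set 2, with no overlap (log2 difference 0.58 ± 0.09, adjusted p = 1.84e-05). Psma3, an alpha subunit, stood at 83.6, 75.5, 79.5, 84.1 and 75.9 FPKM against 97.9, 107, 105, 109 and 108 FPKM, also apart (0.40 ± 0.06, adjusted p = 1.13e-05). The other core genes called higher were Psma2 (0.23), Psmb3 (0.24), Psmb5 (0.23) and Psmb6 (0.16), and the assembly chaperone Psmd10 was higher by 0.15.

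In the other direction, Psmd4 stood at 108, 96.5, 104, 109 and 115 FPKM in vehicle set 1 and at 76.8 to 81.5 FPKM in vehicle set 2, with no overlap (-0.42 ± 0.05, adjusted p = 8.41e-07). Psmc3 stood at 98.6, 97.2, 96.2, 98.3 and 91.2 FPKM in vehicle set 1, above all vehicle set 2 libraries (-0.36 ± 0.05, adjusted p = 6.43e-06). The ATPases Psmc2 (-0.16), Psmc4 (-0.25) and Psmc5 (-0.21), the receptor Psmd2 (-0.21) and the lid subunits Psmd3 (-0.19), Psmd11 (-0.21) and Psmd12 (-0.20) were lower too. Groups did not overlap for 5 core genes, all higher, and 9 regulatory genes, all lower, against 19.1% and 14.4% of all genes.

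**Figure D5:**
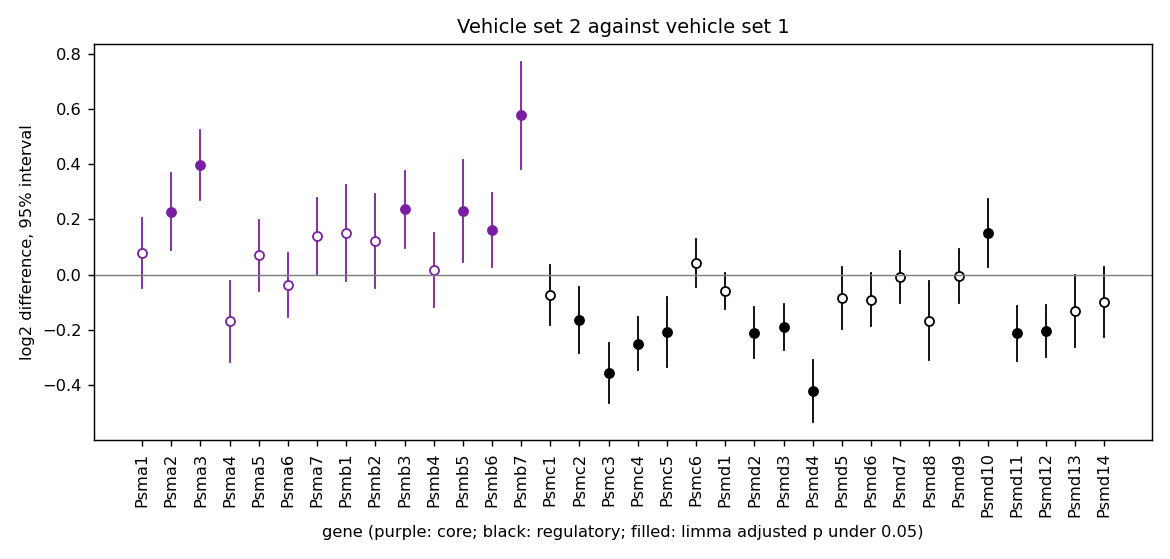
Log2 difference of each proteasome gene in vehicle set 2 against vehicle set 1 with 95% intervals, filled where called by limma. Filled core points (purple) lie above 0 and filled regulatory points (black) below 0, apart from Psmd10.

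The core mean minus the regulatory mean, on the log2 scale, was 0.65 to 0.73 in the 10 libraries of vehicle set 1 and AA147 and 0.80 to 1.09 in the 15 libraries of vehicle set 2, tunicamycin and Ceapin-A7, without overlap. Regulatory transcripts had a median length of 1887 bases, against 1162.5 bases for the core and 3222 bases for all genes with a length (97% of those tested). Among genes under 1500 bases the median difference between the vehicle sets was 0.12 for 11 core genes, -0.15 for 4 regulatory genes and 0.09 for all genes. Among those of 1500 to 3000 bases it was 0.23 for 3 core genes, -0.17 for 14 regulatory genes and 0.01 for all. The part of length in the difference between the particles was not tested. Ddx3y stood at 10.9 to 13.0 FPKM in vehicle set 1 and at 0 in libraries 1 to 4 of vehicle set 2. With Ddx3y as a covariate 13 members were called between the sets, against 40.9% of all genes (limma). Of 10 rod markers, 5 were called lower in vehicle set 2 and 0 higher. What else differed between the 2 vehicle sets is not given in the sources used here, and no cause was tested. Set against the vehicle of the other table, the 34 members gave 19 calls for tunicamycin, 21 for Ceapin-A7 and 17 for AA147, where 56.3%, 50.9% and 45.9% of all genes were called, so these counts were near the background.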

How the data were processed

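The authors deposited 1 table of FPKM values per group, with 5 libraries each. Per the submitters' processing notes, the build was GRCm39 and the tools were DESeq2 1.4.5, RSEM 1.2.18 and HISAT2 2.0.4, with no role stated. Because the values are FPKM, count models were not fitted. Per the labels' protocols, cornea and lens were removed and stranded mRNA libraries made. Columns were matched to samples by name, with 0 left out. Depth was estimated from the steps between low FPKM values, assuming that 250 bases of a transcript cannot start a fragment.

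Values were tested as log2(FPKM + 1), which understates the change of low genes, for the 13117 genes that reached 1 FPKM in 5 or more of the 25 libraries, in 1 linear model of all 5 groups with limma 3.58.1 (R 4.3.3, intensity trend). All tests were two-sided, with Benjamini-Hochberg adjustment over all genes tested and calls at 0.05. Named were all members called, the peptidase subunits, receptors and deubiquitinase, the highest and lowest members of each particle and members whose groups did not overlap, and likewise, for other lists, the genes called or of smallest p. Psmd11 and Psmd5 in the comparisons with Ceapin-A7, and Psma4 and Psmd9 elsewhere, were named after their values were seen. Members, lists and tests were chosen with earlier results of these data known. Transcript lengths came from GENCODE M21. The scripts were tested on simulated data. The simulation of the model gave all groups the same spread, so it does not cover the more variable tunicamycin libraries. Alternatives were another pseudocount, no filter, 2 other scalings, fewer groups or all genes in the fit, the other vehicle set, a replicate block, no trend, Ddx3y as a covariate and each library left out. Not every gene called in the other lists is reported here.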

Additional observations from a re-analysis of the deposited data

Results flagged for a closer look

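In 12 of 180 sets of 5 libraries, 1 library stood apart from the other 4 by Dixon's gap test (limit 0.71), and chance alone gives about 1 in 20. AA147 library 3 was high in Psma6, at 101.5 FPKM (others 82.6 to 87.7), Psmb2, at 87.4 FPKM (66.0 to 69.2), Psmb6, at 109.5 FPKM (89.6 to 93.1), and Psmd8, at 107 FPKM (88.1 to 92.6), while AA147 library 1 was low in Psmb7, at 107 FPKM (124 to 131). In vehicle set 1, library 4 was high in Psmb4, at 154 FPKM (135 to 140.0), and Psmd10, at 12.3 FPKM (10.2 to 10.7), and library 2 in Psmd5, at 28.6 FPKM (26.95 to 27.1). In vehicle set 2, library 5 was low in Psma1, at 52.8 FPKM (57.8 to 58.0), and library 3 high in Psmd8, at 93.9 FPKM (77.9 to 80.1). Tunicamycin library 3 was high in Psmc5, at 106 FPKM (81.8 to 87.3), and Ceapin-A7 library 4 in Psmd7, at 63.0 FPKM (59.2 to 60.02).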

How the results depend on the processing

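The other vehicle set moved the counts of members called from 0 to 19 for tunicamycin (6 higher, 13 lower), 21 for Ceapin-A7 (13 higher, 8 lower) and 17 for AA147 (11 higher, 6 lower), where 56.3%, 50.9% and 45.9% of all genes were called. The regulatory median of tunicamycin became -0.18, the core and regulatory medians of Ceapin-A7 0.24 and -0.09, and those of AA147 -0.14 and 0.17. Against it Psmb5 (0.21), Psmb7 (0.54) and Psmd4 (-0.39) changed sign with tunicamycin, Psmd4 (-0.38) and Psmc3 (-0.20) with Ceapin-A7, and Psmb7 (-0.51) with AA147, all called. Tunicamycin against Ceapin-A7 gave 0 calls with only these groups in the fit, 0 with all genes of their tables and 2 with Ddx3y as a covariate, against 5, where 4.67%, 4.65% and 9.63% of all genes were called. With single libraries left out it gave 1 to 13 (7.05% to 21.9% of all genes), and tunicamycin against vehicle set 2 gave 0 to 2 (4.66% to 15.1%). The cause was not tested.

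Same-numbered libraries of different groups were no more alike than others. Their deviations correlated at -0.49 to 0.60, with 21 of 50 pairs over 0.1. Differently numbered libraries correlated at -0.61 to 0.63, with 78 of 200 pairs over 0.1. Only 4 of 25 libraries correlated best with their own number. With the replicate block, members called were 0 for each compound against its vehicle set, 4 for tunicamycin against Ceapin-A7 and 16 between the vehicle sets. In that fit 8.5% of all genes were called for tunicamycin and 0% for Ceapin-A7 and for AA147, each against its vehicle set. The shares were 13.2% for tunicamycin against Ceapin-A7 and 46.6% between the vehicle sets. The other vehicle set does not apply to tunicamycin against Ceapin-A7. Depth was 15.3 to 25.4 M fragments. All 34 tested members lay well above the floor of 1 FPKM, with a lowest single value of 10.2 FPKM (Psmd10). The number of libraries and their spread set the width of the intervals.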
